A study of Mus musculus with 4 samples.

Results

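Cadherins and protocadherins were compared between a non-pigmented and a pigmented line of mouse skin melanocytes. The genes were taken by symbol: Cdh followed by a number, or Pcdh followed by a number, a or b, with Cdh19 left out and with probe sets that name exactly 1 gene. This gave 54 of 18193 genes, or 99 of 45037 probe sets: 20 cadherins, 22 genes of the beta protocadherin cluster and 12 protocadherins outside the clusters. No alpha protocadherin was included, because the 6 probe sets of that cluster each name 9 or 14 genes.

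The non-pigmented melanocytes are homozygous for a point mutation in Tyr. This gene encodes tyrosinase, which carries out the first step of melanin synthesis. In the pigmented melanocytes that mutation was corrected, and they are labelled wild type. Both lines have a Balb/c background and were cultured with serum, 2-mercaptoethanol and TPA, a phorbol ester that activates protein kinase C. Total RNA of each line was measured on 2 Affymetrix arrays, so that 4 arrays were available. With 1 line per genotype, genotype and line cannot be told apart. Separate cultures are not stated for the arrays of a line, so a p-value reflects the spread among these 4 arrays and that spread may be technical.

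Cadherins are membrane proteins that hold cells together through calcium-dependent binding of their outer repeats. Classical cadherins are linked to actin by catenins: beta-catenin or plakoglobin and p120-catenin bind the tail, and alpha-catenin and vinculin join it to the filaments. In skin, E-cadherin and P-cadherin tie melanocytes to keratinocytes, and a switch towards N-cadherin is well known in melanoma. Protocadherins lack the catenin-binding tail. The beta protocadherins stand side by side in 1 gene cluster and are best known for giving neurons individual surface identities, and the delta protocadherins, which include Pcdh7, Pcdh9, Pcdh10, Pcdh17, Pcdh18 and Pcdh19, act in cell sorting and motility.

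All signals below are the deposited linear probe set intensities, given for replicates 1 and 2 of a line in that order. Differences are log2(signal + 16), non-pigmented minus pigmented, with the standard error from limma. The median probe set signal was 99.7 to 111 on the non-pigmented and 126 to 130 on the pigmented arrays. Replicate 1 of either line had a 3′ to 5′ ratio of the Gapdh control below 1, but the ratio was 20.2 on non-pigmented replicate 2 and 16.8 on pigmented replicate 2. Replicate 2 of either line was therefore put in a low RNA integrity class. Whether its RNA was degraded was not tested. Tyr had signals of 214 and 67.2 in the non-pigmented and 17306 and 11698 in the pigmented line. Sox10, which marks the neural crest lineage of melanocytes, had 8268 and 8558 in the non-pigmented and 8602 and 10232 in the pigmented line. All of 8 melanocyte markers were lower on both non-pigmented arrays than on either pigmented array, as were 24.4% of all genes. Of these 8, 6 in the non-pigmented and 8 in the pigmented line lay above a signal of 70.7 on both arrays. That value, the 40th percentile of all probe sets, was the filter on dim genes and is called the filter level here. The files hold no detection call, so it is only a description of what is bright.

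Of the 54 genes, 15 lay above the filter level on both non-pigmented arrays (27.8%) and 18 on both pigmented arrays (33.3%). Over all genes the shares were 63.1% and 64.7%. Above the level in both lines were 10 genes, against 57.7% of all genes: Cdh2, Cdh7, Cdh13, Pcdh7, Pcdh9, Pcdh19, Pcdhb16, Pcdhb17, Pcdhb21 and Pcdhb22. In the non-pigmented line alone they were Pcdh1, Pcdh10, Pcdh17, Pcdh18 and Pcdh20, all of them protocadherins outside the clusters. In the pigmented line alone they were Cdh10, Pcdh8, Pcdh12, Pcdh15, Pcdhb8, Pcdhb15, Pcdhb19 and Pcdhb20. Genes above the level in 1 line only made up 5.4% of all genes for the non-pigmented and 6.97% for the pigmented line. Neighbours of the level are divided by small gaps: Pcdh8 had 81.4 and 65.3 in the non-pigmented line and 90.3 and 96.2 in the pigmented line.

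**Figure D1:**
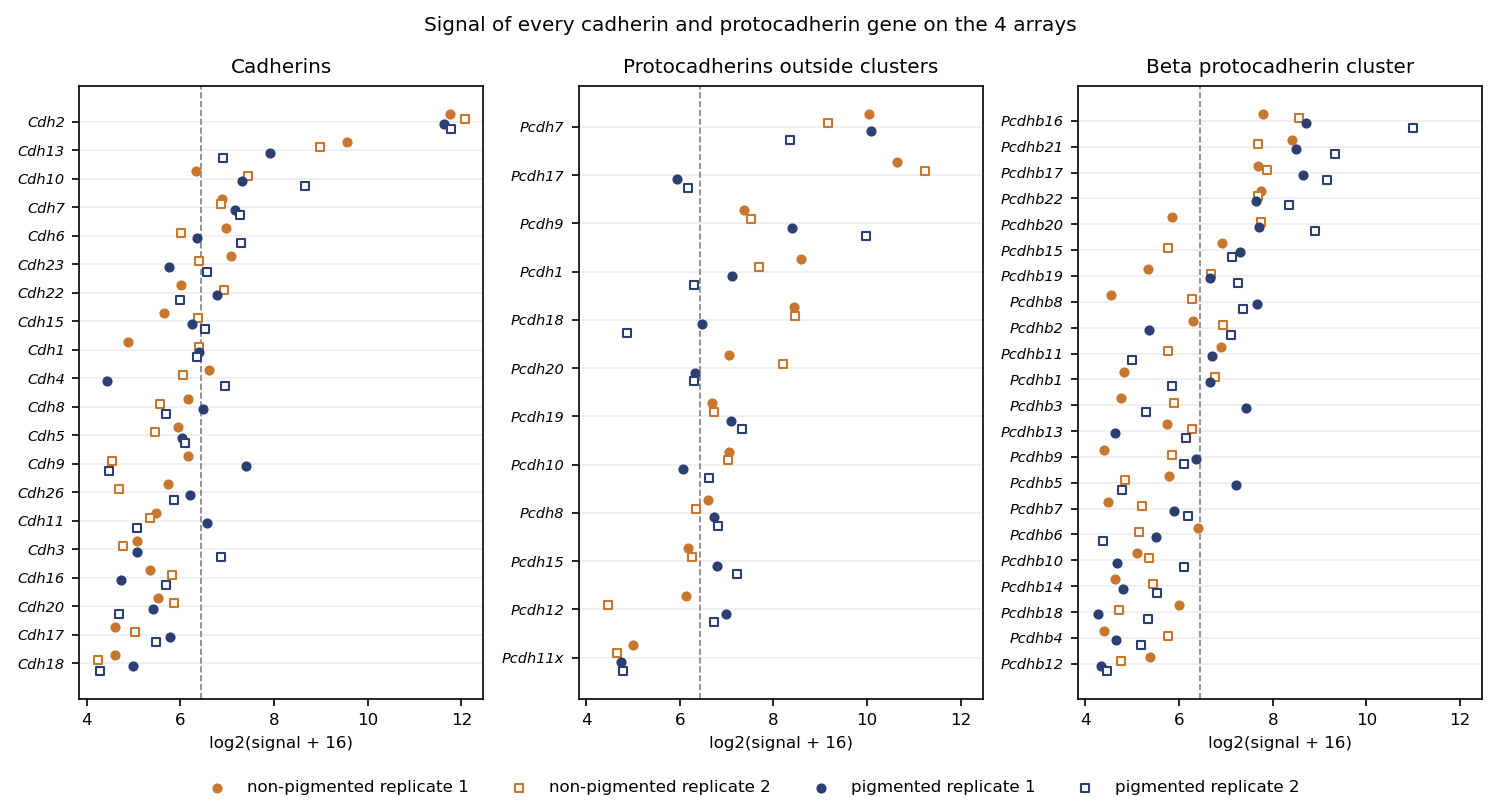
Signal of each of the 54 genes on each array, as log2(signal + 16) of the gene's brightest probe set, in 3 panels by family. Filled circles are the arrays with intact Gapdh control, open squares those with a raised 3′ to 5′ ratio, and the dashed line is the filter level. Cdh2 is bright on all 4 arrays, and Pcdh17 has both non-pigmented arrays far to the right of both pigmented arrays.

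The lines differed clearly in 1 gene. Pcdh17 was higher in the non-pigmented line, and no cadherin or protocadherin was called lower there. A total of 24 genes passed the filter on their mean over all arrays and were tested (44.4%, against 69.0% of all genes). Of these, 1 was called higher (4.17%) and 0 lower by limma at an adjusted p under 0.05. Over all 12558 genes tested, 3.36% were called, 2.03% higher and 1.33% lower in the non-pigmented line. At an unadjusted p under 0.05, 5 of the 24 were higher and 3 lower, against 7.56% and 6.25% of all genes tested. With the RNA integrity class as a block, 3 were called higher and 0 lower, against 7.04% of all genes called (4.32% higher and 2.72% lower). Without pigmented replicate 1, 3 were higher and 2 lower, against 6.4% of all genes (4.27% higher and 2.14% lower). With the title date as a block, 1 was higher and 0 lower, against 3.12% of all genes (1.96% higher and 1.16% lower). The arrays of the lines did not overlap in 6 of the 24 with the non-pigmented higher (25.0%, against 19.5% of all tested genes), and in 10 with it lower (41.7%, against 24.4%). Over all 54 genes these were 8 higher (14.8%, against 16.9% of all genes) and 17 lower (31.5%, against 24.4%). A test of 2 against 2 arrays has little reach: the smallest absolute difference of any gene called was 1.90, and an exact two-sided permutation test could not go below a p of 0.333.

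**Figure D2:**
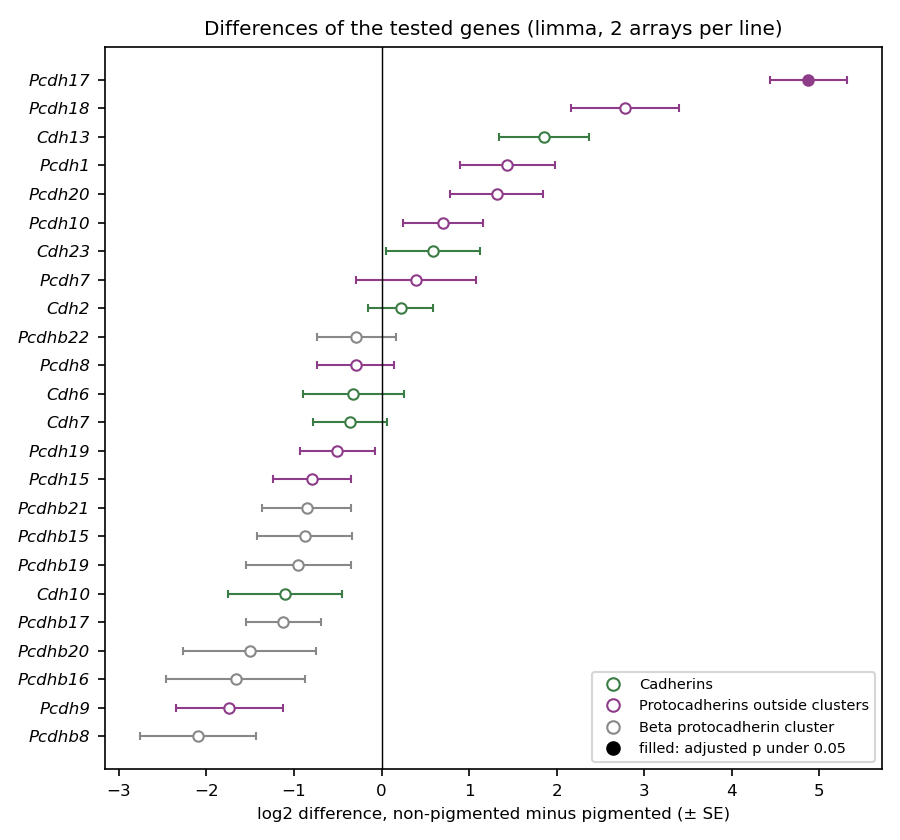
Log2 difference of each of the 24 tested genes, non-pigmented minus pigmented, with the standard error from limma. Pcdh17 (4.87) stands at the top as the only filled point. All 8 tested beta protocadherins lie left of 0, and 4 of them lay above the filter level in the pigmented line alone.

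Pcdh17 is a delta protocadherin studied mostly in axons, where it recruits regulators of actin to contacts between cells. Its signal was 1581 and 2379 on the non-pigmented arrays, against 45.7 and 56.1 on the pigmented arrays. The non-pigmented arrays were thus both bright and the pigmented arrays both under the filter level. The mean was 10.93 ± 0.41 in the non-pigmented and 6.06 ± 0.16 in the pigmented line (log2, SD, n = 2 each). The difference was 4.87 ± 0.44, which is 29.3-fold on this scale, and limma gave an adjusted p of 0.00618. It was 4.47 within the first and 5.28 within the second of the 2 dates in the array titles. A second probe set had 1909 and 554 in the non-pigmented line, against 24.7 and 35.4 in the pigmented line. Since the pigmented signal is dim, the size depends on the pseudocount: it was 5.23 with 1 and 4.13 with 64 in place of 16.

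Pcdh18, another delta protocadherin, had signals of 332 and 335 on the non-pigmented arrays, against 72.5 and 13.5 on the pigmented arrays. The non-pigmented pair was nearly equal, the pigmented pair was far apart, and the lines did not overlap. The difference was 2.78 ± 0.62 with an adjusted p of 0.0839 by limma, so it did not pass. It passed with the integrity class as a block (adjusted p of 0.0455), and not with the title date as a block (adjusted p of 0.0534). With single arrays left out, the difference ranged from 1.98 to 3.57 and was largest without pigmented replicate 1. A second, dimmer probe set ran the same way, with 97.2 and 67.6 against 6.07 and 32.2, while the dimmest was under 10 on all arrays.

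The promoters of these 2 genes are shown because they had the largest positive differences. The sequences are the 250 bases before the annotated start, from RefSeq on GRCm38.p6. The window of Pcdh17 is chr14:84443313-84443562 on the plus strand and that of Pcdh18 is chr3:49757317-49757566 on the minus strand. Capitals mark ATTGG, the letters of the CCAAT box read from the opposite strand.
Pcdh17: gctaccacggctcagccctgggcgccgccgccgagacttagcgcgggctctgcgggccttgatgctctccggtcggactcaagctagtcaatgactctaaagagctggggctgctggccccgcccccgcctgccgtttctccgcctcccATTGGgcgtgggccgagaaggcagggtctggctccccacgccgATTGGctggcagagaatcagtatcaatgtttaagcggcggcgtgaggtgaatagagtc
Pcdh18: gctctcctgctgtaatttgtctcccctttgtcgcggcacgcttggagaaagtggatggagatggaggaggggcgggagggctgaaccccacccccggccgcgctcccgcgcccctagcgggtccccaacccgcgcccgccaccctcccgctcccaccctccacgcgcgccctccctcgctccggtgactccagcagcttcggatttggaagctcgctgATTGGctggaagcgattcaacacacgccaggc

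Both windows are rich in CpG, with 21 CpG pairs and 64.8% GC for Pcdh17 and 23 pairs and 68% GC for Pcdh18, against medians of 6 pairs and 52.4% over all 32851 windows in the table. Among protocadherins with negative differences, Pcdh9 had 18 pairs, Pcdh19 16, Pcdh8 11 and Pcdh15 6. Among those with positive differences, Pcdh10 had 22, Pcdh7 7 and Pcdh20 3. CCAAT on either strand occurs 2 times in Pcdh17 and 1 time in Pcdh18, and in 33.8% of all windows. It is also in the windows of Pcdh8, Pcdh9, Pcdh15 and Pcdh19. Of the cadherins and protocadherins with a promoter, only Cdh6, Cdh10, Cdh15, Cdh22, Cdh23 and Pcdh7 had none. The longest run of letters that both share is GATTGGCTGG, which starts 59 bases before the start of Pcdh17 and 33 before that of Pcdh18. That run overlaps the capitals and is found, on either strand, in 0.466% of all windows. It was picked out after the sequences were read. Letters of 3 kinds of E-box were searched on both strands and are in neither window. CACCTG is in 17.2% of all windows. CATGTG is in 12.3%. The palindrome CACGTG is in 6.02%. A match is a description of letters, not of binding. The table held a promoter for 20 of the 54 genes.

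The other protocadherins outside the clusters divided in both directions, with no call. Pcdh1, found in epithelia, had signals of 370 and 192 in the non-pigmented line, against 123 and 62.7 in the pigmented line, a difference of 1.44 ± 0.54 (adjusted p of 0.303 by limma). Pcdh20 had 117 and 277 in the non-pigmented line, against 64.3 and 62.4 in the pigmented line (1.31 ± 0.53, adjusted p of 0.352). Neither gene's lines overlapped, but each had arrays near the filter level. The second probe set of Pcdh20 was dim and ran the other way without overlap. It had 7.20 and 4.09 in the non-pigmented line, against 11.9 and 21.3 in the pigmented line, a difference of -0.58. For Pcdh10 the probe set with the highest mean had 117 and 114 in the non-pigmented line, against 51.2 and 82.1 in the pigmented line (0.70 ± 0.46, adjusted p of 0.60). Of its 6 probe sets, 5 had positive differences without overlap, between 0.70 and 1.76. The largest came from a dimmer probe set, with 79.5 and 58.6 in the non-pigmented line, against 10.0 and 7.94 in the pigmented line. The remaining probe set differed by -0.26, and its lines overlapped.

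Pcdh9, a neural delta protocadherin, ran the other way. Its signals were 149 and 169 on the non-pigmented arrays, against 319 and 995 on the pigmented arrays. The non-pigmented arrays were both lower, and the pigmented arrays differed widely. The difference was -1.74 ± 0.61 with an adjusted p of 0.269 by limma. With single arrays left out, it ranged from -2.53 to -0.94. All 3 probe sets had negative differences, and the lines overlapped in the 2 others. Pcdh15, which forms the tip links of inner ear hair cells, had 56.5 and 60.3 in the non-pigmented line, against 95.4 and 133 in the pigmented line (-0.79 ± 0.45, adjusted p of 0.528). Pcdh19, a delta protocadherin on the X chromosome, had 87.4 and 89.5 in the non-pigmented line and 121 and 145 in the pigmented line (-0.51 ± 0.43). Pcdh8, a delta protocadherin linked to removal of other cadherins from synapses, differed by -0.30 ± 0.44.

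Pcdh7 showed how far a result can rest on the probe set. The probe set used for the test had signals of 1044 and 561 in the non-pigmented line and 1068 and 311 in the pigmented line, which overlap. Both lines were lower on replicate 2, the array with the raised 3′ to 5′ ratio. The difference of that probe set was 0.39 ± 0.68 (adjusted p of 0.872 by limma). A second probe set had 913 and 699 in the non-pigmented line, against 300 and 260 in the pigmented line, with no overlap and a difference of 1.46. The dimmest had 155 and 75.4 in the non-pigmented and 160 and 26.6 in the pigmented line. Pcdh12, a protocadherin of endothelium, was too dim to be tested, with 54.7 and 6.15 in the non-pigmented line and 111 and 89.5 in the pigmented line.

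**Figure D3:**
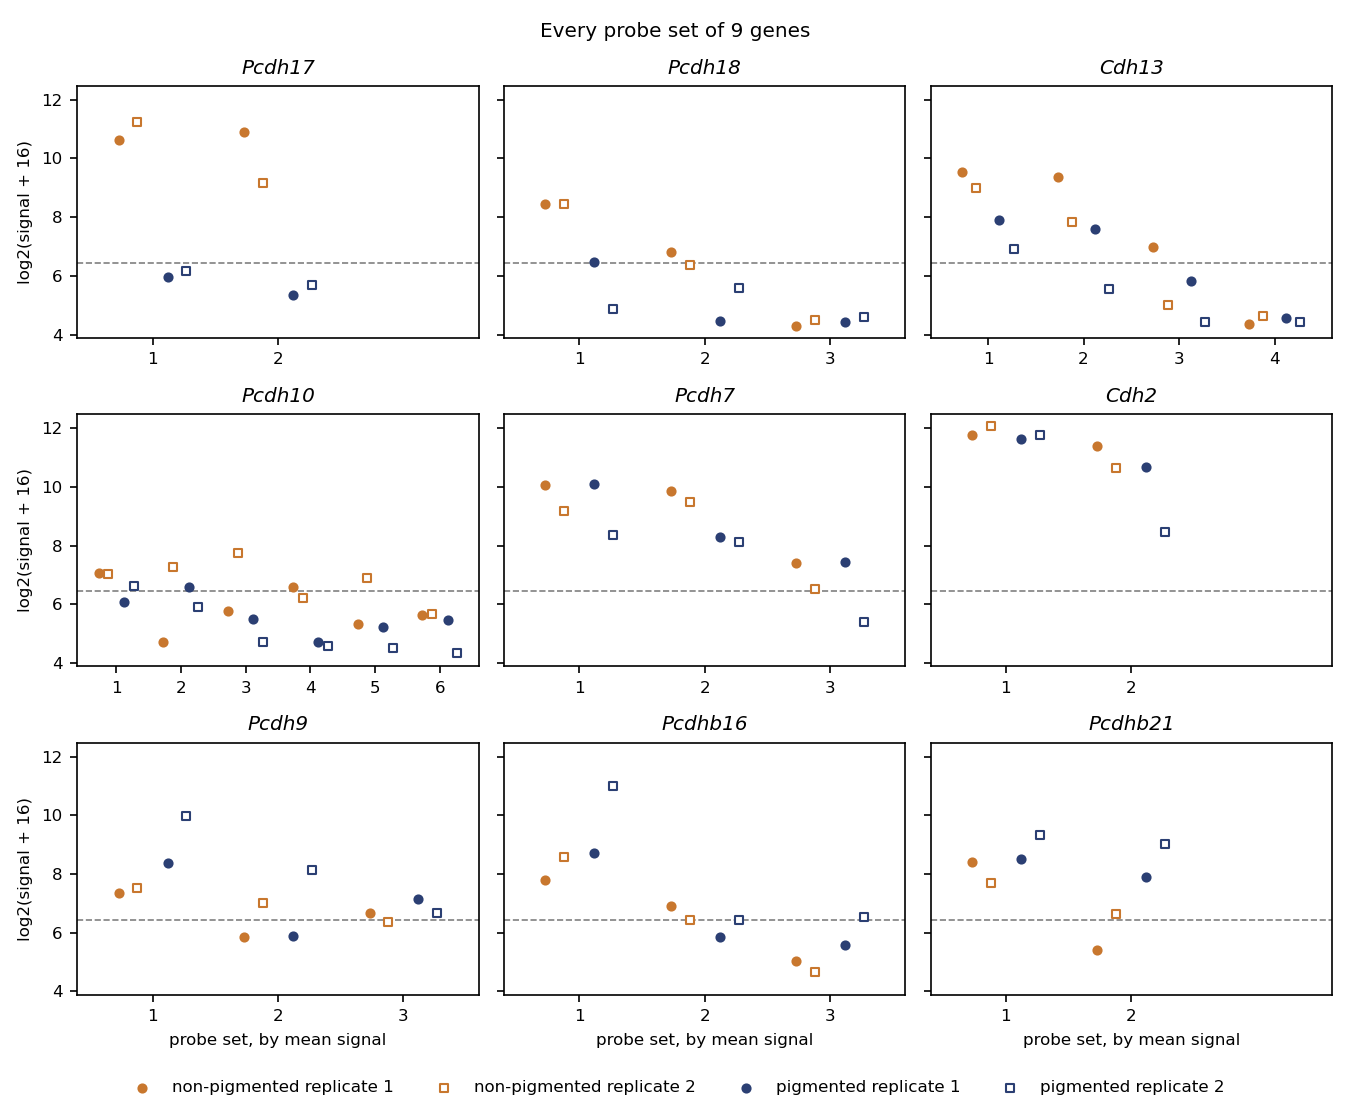
Log2(signal + 16) of every probe set of 9 genes on each array, ordered within a gene by mean signal, with symbols as in the plot of all genes and the filter level dashed. Both probe sets of Pcdh17 separate the lines, while those of Pcdh7, Cdh2 and Pcdhb16 differ among themselves.

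Among the classical cadherins of type I (Cdh1, Cdh2, Cdh3, Cdh4 and Cdh15) only Cdh2, the gene of N-cadherin, lay above the filter level on all arrays. It had signals of 3463 and 4302 in the non-pigmented line and 3133 and 3500 in the pigmented line. The lines overlapped, and the difference was 0.22 ± 0.37 (adjusted p of 0.868 by limma). The second probe set had 2641 and 1583 in the non-pigmented line, against 1621 and 341 in the pigmented line. In the second probe set replicate 2, with the raised 3′ to 5′ ratio, was the lower array in both lines, while in the first it was the higher.

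The other type I cadherins had means under the filter level and were not tested. Cdh1, the gene of E-cadherin, had 13.5 and 68.7 in the non-pigmented line and 67.9 and 65.8 in the pigmented line, on 1 probe set. Cdh3, the gene of P-cadherin, had 17.4 and 11.4 in the non-pigmented line and 17.5 and 101 in the pigmented line. All but the last of these 8 values lie under the filter level. The second probe set of Cdh3 was dim on all arrays, with 13.7 and 8.23 in the non-pigmented and 58.9 and 27.2 in the pigmented line. Cdh4, or R-cadherin, had 80.9 and 50.8 in the non-pigmented and 5.51 and 107 in the pigmented line, and Cdh15, the muscle cadherin, 34.4 and 67.1 against 59.5 and 75.4.

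Cdh13, or T-cadherin, has no cytoplasmic tail and is held in the membrane by a lipid anchor. Its signals were 733 and 489 on the non-pigmented arrays, against 225 and 104 on the pigmented arrays. Both non-pigmented arrays were the higher ones, and within either line the array with the raised 3′ to 5′ ratio was the lower one. The difference was 1.85 ± 0.52, a 3.61-fold higher value, and limma gave an adjusted p of 0.158. It passed with the integrity class as a block (adjusted p of 0.0404), but not with the title date as a block (adjusted p of 0.291). With single arrays left out, the difference ranged from 1.35 to 2.35 and was largest without pigmented replicate 1. A second probe set had 651 and 214 in the non-pigmented line, against 178 and 31.3 in the pigmented line, and the 2 dimmer probe sets overlapped.

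Of the classical cadherins of type II, a group with many cadherins of the nervous system, Cdh6, Cdh7 and Cdh10 were tested and none was called. Cdh10 had 64.2 and 158 in the non-pigmented line and 143 and 389 in the pigmented line (-1.10 ± 0.65, adjusted p of 0.547 by limma). Cdh7, known from migrating neural crest cells of the chick, had 102 and 99.8 in the non-pigmented and 128 and 139 in the pigmented line (-0.36 ± 0.42). Cdh6 had 110 and 48.7 in the non-pigmented and 65.2 and 141 in the pigmented line, which overlap (-0.32 ± 0.58). Cdh5, the cadherin of endothelium, had 45.8 and 27.9 in the non-pigmented and 49.7 and 52.5 in the pigmented line, and Cdh11, a cadherin of mesenchyme, 28.6 and 24.6 against 79.4 and 17.4. Cdh23, the partner of Pcdh15 in tip links, had 120 and 68.1 in the non-pigmented and 37.6 and 78.2 in the pigmented line (0.59 ± 0.53, adjusted p of 0.732), and its other probe set differed by -0.99.

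In the beta cluster, all 8 genes that passed the filter had a negative difference, between -2.10 and -0.29. Of all tested genes, 54.3% had a negative difference. No beta gene was called by limma, while 2 of the 8 were lower at an unadjusted p under 0.05 (25.0%, against 6.25% of all tested genes). Of the 8 genes, 4 lay above the filter level in the pigmented line alone (Pcdhb8, Pcdhb15, Pcdhb19 and Pcdhb20) and 0 in the non-pigmented line alone. A gene that is bright in 1 line only can pass the filter through that line, so the 8 are not a fair count of direction. The whole cluster was counted too: 15 of 22 genes were negative, as were 56.9% of all genes. The 15 became 13 after quantile normalization and after centring on the median, and the 8 tested genes stayed negative in both. The median over all tested genes moved to 0.18 with centring, against -0.07 without. Arrays of the lines did not overlap, with the non-pigmented lower, in 7 of the 22 (31.8%), against 24.4% of all genes, and in 1 with the non-pigmented higher, against 16.9%. Family members are alike in sequence, so a probe set may also read neighbouring genes, and the genes are not separate evidence.

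Pcdhb16 varied widely within the pigmented line. Its brightest probe set had signals of 207 and 362 on the non-pigmented arrays, against 400 and 2027 on the pigmented arrays. A single array, pigmented replicate 2, stood far above the other 3. The difference was -1.67 ± 0.80 (adjusted p of 0.449 by limma). With single arrays left out, the difference of Pcdhb16 ranged from -2.81 to -0.52. Another of its 3 probe sets ran the opposite way, with 104 and 71.4 in the non-pigmented and 42.0 and 70.0 in the pigmented line.

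Pcdhb21 had negative differences on both probe sets. The brighter had 324 and 191 in the non-pigmented line and 344 and 624 in the pigmented line (-0.86 ± 0.51). The other had 26.7 and 84.4 in the non-pigmented line, against 221 and 508 in the pigmented line, a difference of -2.43. Pcdhb17 had 189 and 219 in the non-pigmented line, against 382 and 555 in the pigmented line (-1.12 ± 0.43, adjusted p of 0.320 by limma). Pcdhb8 had 7.52 and 61.8 in the non-pigmented line, against 185 and 150 in the pigmented line (-2.10 ± 0.66, adjusted p of 0.217). The remaining 4 tested genes had adjusted p-values of 0.477 or more. Pcdhb20 had 41.5 and 200 in the non-pigmented and 193 and 463 in the pigmented line (-1.51 ± 0.76). Pcdhb19 differed by -0.95 ± 0.60, Pcdhb15 by -0.88 ± 0.54 and Pcdhb22 by -0.29 ± 0.45. A further 14 genes of the cluster were under the filter.

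Among markers of other cells, those of Schwann cells differed most clearly. The signals of 6 Schwann cell markers summed to 18372 and 18743 in the non-pigmented line, against 501 and 652 in the pigmented line. Of the 5 tested, 3 were called higher by limma, against 2.03% of all tested genes. The 8 melanocyte markers summed to 14591 and 24345 against 114777 and 111740. Of these, 6 were called lower in the non-pigmented line by limma (against 1.33% of all tested genes), and Tyrp1 and Sox10 were not called. Sums of the 8 keratinocyte markers were 927 and 896 in the non-pigmented and 613 and 544 in the pigmented line, and 1 of 4 tested was called higher, but 5 of the 8 had negative differences. Sums of 8 fibroblast markers were 843 and 971 against 1635 and 1519, mostly through Col1a2 (200 and 348 against 1222 and 1176), while 6 of the 8 had positive differences. Those of 6 endothelial markers were 280 and 341 against 688 and 482, of 6 muscle markers 5314 and 2055 against 999 and 825, and of 5 immune markers 477 and 806 against 843 and 956. The muscle sums came mostly from Acta2 (3674 and 1647 against 644 and 603) and Actg2 (1395 and 178 against 114 and 8.13). Of the 6 muscle markers 4 had positive differences, while Myod1 (-0.65) and Myog (-0.11) had negative ones. None of the tested fibroblast, endothelial, muscle and immune markers was called by limma. At an unadjusted p under 0.05, 2 of 4 tested muscle markers were higher, against 7.56% of all tested genes. At the same limit 1 of 4 tested fibroblast markers was lower, against 6.25%. No marker was listed at 0. Their part in the results for Pcdh17 and the other genes was not tested. In such bulk RNA, fewer cells of a type and less RNA per cell cannot be told apart.

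Of the genes that work with cadherins, 75 of 81 listed genes were on the array and 52 were tested. Of these 3 were called higher in the non-pigmented line (5.77%, against 2.03% of all genes) and 0 lower by limma. At an unadjusted p under 0.05, 9 were higher (17.3%, against 7.56% of all tested genes) and 2 lower (3.85%, against 6.25%). The median difference of the 52 was 0.47, against -0.07 for all tested genes, but over all 75 it was 0.049, against -0.11 for all genes. The lists were chosen with earlier results of these data known, so these shares only describe them.

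Of 13 catenins and their partners, 10 lay above the filter level on all arrays. None of the 11 tested was called by limma, while 2 were higher (18.2%, against 7.56% of all tested genes) and 1 lower (9.09%, against 6.25%) at an unadjusted p under 0.05. Ctnnb1, the gene of beta-catenin, had signals of 11045 and 12014 in the non-pigmented line and 12372 and 15897 in the pigmented line (-0.28 ± 0.29, adjusted p of 0.766). Ctnna1, for alpha-catenin, differed by -0.04 ± 0.41, Ctnnd1, for p120-catenin, by -0.67 ± 0.39 and Jup, for plakoglobin, by -0.09 ± 0.54. For Ctnna1 and Jup the sign turned with quantile normalization and with median centring. Vcl, for vinculin, had 9248 and 6902 in the non-pigmented line, against 2371 and 1595 in the pigmented line (2.03 ± 0.40, adjusted p of 0.0584, and 0.0112 with the integrity class as a block). Ctnnal1, a relative of alpha-catenin, differed by 1.74 ± 0.41 (adjusted p of 0.0951) but by 0.20 with plain _at probe sets (adjusted p of 0.943). Pkp4, a relative of p120-catenin, differed by -1.32 ± 0.47 (adjusted p of 0.279). With the integrity class as a block, Ctnnal1 (0.0323) and Pkp4 (0.0448) passed too.

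Of 10 large and related cadherins tested, 1 was called higher and 0 lower by limma, against 2.03% and 1.33% of all tested genes. At an unadjusted p under 0.05, 4 were higher and 0 lower, against 7.56% and 6.25%. Celsr2, a cadherin of planar cell polarity, was higher in the non-pigmented line, with 821 and 1175 against 154 and 174 in the pigmented line (2.47 ± 0.43, adjusted p of 0.0380 by limma). It did not pass with the title date as a block (adjusted p of 0.0893), without the filter (0.0699), with the mean of probe sets (0.0779), or without either non-pigmented array (0.107 and 0.205). Fat1, a giant cadherin of the cell cortex, had 11290 and 7320 in the non-pigmented line, against 2766 and 1401 in the pigmented line (2.20 ± 0.48, adjusted p of 0.0768). The lines did not overlap, and it passed with the integrity class as a block (adjusted p of 0.00975). Clstn1, a calsyntenin, differed by 1.32 ± 0.51 and Cdhr5 by 1.67 ± 0.46, without a call. Clstn1 passed with the integrity class as a block (adjusted p of 0.0400).

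Of 13 genes of shedding and turnover tested, 2 were called higher in the non-pigmented line, Fgfr1 and Mmp3, and 0 lower. Over all tested genes 2.03% were called higher and 1.33% lower. The same 2 were higher and 0 lower at an unadjusted p under 0.05, against 7.56% and 6.25%. Fgfr1, a growth factor receptor that N-cadherin binds and keeps active, had 1637 and 3801 in the non-pigmented line, against 8.03 and 11.6 in the pigmented line (6.61 ± 0.53, adjusted p of 0.00585 by limma). Its size rests on the probe set: the others had 941 and 78.5 against 23.9 and 38.6, and 115 and 506 against 101 and 34.6. With plain _at probe sets the difference was 1.76 (adjusted p of 0.385), and without non-pigmented replicate 1, when another probe set was the brightest, 2.76 (adjusted p of 0.163). Mmp3, a metalloproteinase that can cut E-cadherin, had 905 and 913 against 125 and 39.9 (3.38 ± 0.55, adjusted p of 0.0316). It did not pass without either non-pigmented array (adjusted p of 0.0868 and 0.0946) or without the filter (0.0600). Adam10, the main sheddase of cadherins, differed by -0.96 ± 0.46, Adam15 by 1.30 ± 0.58 and the phosphatase gene Ptprk by -1.43 ± 0.60, without a call.

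Of the repressors of E-cadherin, 0 of 7 tested were called by limma and 0 had an unadjusted p under 0.05. Snai2, a repressor that is also a neural crest factor, had 4299 and 4895 in the non-pigmented line and 3292 and 3832 in the pigmented line (0.37 ± 0.36). Zeb1 differed by 1.08 ± 0.52 (adjusted p of 0.455) and Twist2 by -1.04 ± 0.50 (adjusted p of 0.456). Of the desmosome list, 4 of 11 genes were bright enough to be tested, and none was called, while 1 was higher and 0 lower at an unadjusted p under 0.05 (7.56% and 6.25% of all tested genes). Pkp1, a plakophilin, had 309 and 346 in the non-pigmented line, against 68.0 and 27.1 in the pigmented line (2.51 ± 0.50, adjusted p of 0.0601 by limma, and 0.0418 with the integrity class as a block). Pkp2, another plakophilin, differed by -0.76 and Dsp, for desmoplakin, by -0.63. Of 7 nectin and tight junction genes tested, none was called, while 0 were higher and 1 lower at an unadjusted p under 0.05 (7.56% and 6.25% of all tested genes). Jam3 differed by 1.08 ± 0.47, Tjp1 by 0.79 ± 0.38 and Jam2, the lower one, by -1.12 ± 0.41. The sign of Jam2 turned with the mean of probe sets (0.18).

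**Figure D4:**
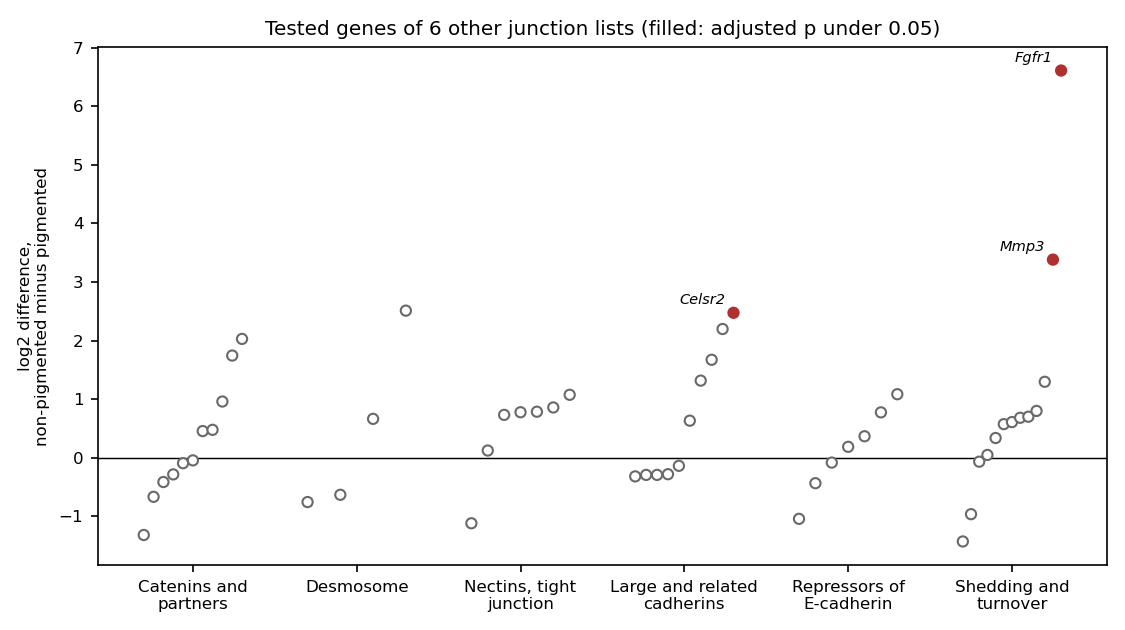
Log2 difference, non-pigmented minus pigmented, of each of the tested genes in 6 lists of other junction genes, with genes called by limma filled. Fgfr1 (6.61), Mmp3 (3.38) and Celsr2 (2.47) are the filled points.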

How the data were processed

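RNA of cultured melanocytes was measured on 4 arrays, 2 per line, each with 1 labelled sample. The deposited intensity values were made by the authors with Affymetrix Expression Console, per the submitters' processing notes. The version and summary algorithm are not given in the sources used here. Each deposited column had a mean of 500 after trimming 2% at either end, so arrays had been scaled to a common level. This does not correct a raised 3′ to 5′ ratio.

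Of 45101 probe sets, 64 controls were left out. The platform annotation named 1 gene for 34945, several for 932 and none for 9160. Of the 34945, 34741 matched RefSeq by Entrez number and 0 symbols changed. A gene was represented by its probe set with the highest mean. Genes with a mean under the 40th percentile (log2 value 6.44) were left out, and 12558 of 18193 were tested on log2(signal + 16) with limma 3.58.1 in R 4.3.3 (lmFit, eBayes with trend), with Benjamini-Hochberg adjustment over all of them. The number of arrays limits the precision. Replicates were numbered in accession order. The code was tested on simulated data.

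Each of the 2 title dates holds 1 array per line. Deviations of same-date arrays from their line means correlated at -0.51 and those of arrays of the same integrity class at 0.51. With 2 arrays per line these must be opposite, and the title dates were taken as a block without being shown to pair the arrays. Integrity classes were set by a Gapdh 3′ to 5′ ratio over 3. Alternatives were quantile normalization, median centring, other filters, pseudocounts and variance models, other ways to join probe sets, either block, and leaving out arrays.

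Genes and lists were chosen with earlier results of these data known. Named were all called and tested genes, 4 catenins, and up to 3 further genes with the smallest p of each list. Untested genes and markers were named after their values were seen. Figures were drawn with matplotlib 3.10.9.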

Additional observations from a re-analysis of the deposited data

How the results depend on the processing

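The call of Pcdh17 held under all alternatives, with differences from 4.13 to 5.23 and adjusted p-values from 0.00071 to 0.0184 by limma. The number of cadherins and protocadherins called was 1, and it was 3 with the integrity class as a block and 1 to 5 with single arrays left out (1 to 3 higher and 0 to 2 lower). It reached 5 without pigmented replicate 1. The title date as a replicate block left it at 1. Over all genes, 422 were called, 392 with the date as a block, 884 with the integrity class as a block and 204 to 809 without single arrays. The number of other junction genes called was 3. It was 6 with median centring, 1 without the filter, 9 with the integrity class as a block and 0 to 6 without single arrays: 0 without non-pigmented replicate 1, 1 without non-pigmented replicate 2 and 6 without pigmented replicate 1. The count of 18 genes above the level in the pigmented line was 8 at the 60th percentile, 11 with the mean of probe sets, and 26 to 28 when only 1 of its arrays had to be above. Signs turned for 7 genes without a call, of which Jam2 had an unadjusted p under 0.05. Without single arrays Cdh6 ranged from -0.80 to 0.16, Pcdh7 from -0.47 to 1.26, Pcdhb22 from -0.64 to 0.060, Jup from -0.71 to 0.53 and Ctnna1 from -0.46 to 0.37. Jup was 0.14 with quantile normalization and 0.15 with median centring. Ctnna1 was 0.032 with quantile normalization, 0.20 with median centring, 0.034 with the mean of probe sets and 0.17 with plain _at probe sets. Jam2 was 0.18 with the mean of probe sets and Snai2 -0.025 with plain _at probe sets. The causes were not tested. With 1 array left in a line, it was assumed to vary like the other line. Dim genes could not be told from background, since the files hold no detection call.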
